A study of Homo sapiens with 6 samples.

Results

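The interleukin-1 system was examined as 8 genes: the ligands IL1A and IL1B, the receptor antagonist IL1RN, the signalling receptor IL1R1, the decoy receptor IL1R2, the shared receptor subunit IL1RAP, the inhibitory receptor SIGIRR and the processing protease CASP1. They were read at every probe set whose only gene symbol in the probe annotation was one of these names, which gave 22 of the 54613 probe sets tested and 8 of 19775 named genes. The arrays measured MCF10A, an established line of human breast epithelial cells that do not form tumours. Of 6 arrays, 3 held MCF10A cells with C/EBPbeta-2 and 3 held MCF10A cells alone, called control here. C/EBPbeta-2 is one of the gene-activating protein forms made from CEBPB, which encodes a leucine zipper transcription factor. Cells of both groups had grown in the same medium with horse serum, insulin, epidermal growth factor, cholera toxin and the glucocorticoid hydrocortisone, and none had any further treatment. The sources used here state neither how C/EBPbeta-2 was introduced nor whether the control cells carried an empty vector. The labels call the 3 samples of a group biological replicates without saying how they were separated. The p-values thus cover only the spread between these samples.

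All values are log2 intensities. Array medians lay at 4.46 to 4.56 on this scale, and since no detection calls were used, a value near or below them has no stated background. Poly-A spike-in RNA was low on 2 arrays, at 3.73 (C/EBPbeta-2 replicate 2) and 3.86 (control replicate 1), where the rest read 6.75 to 7.65. The same 2 arrays had the widest gap between the 3' and 5' control probe sets of ACTB, 1.32 and 1.48, against -0.04 to 0.64. The control probe sets of GAPDH showed no wider gap there, at 0.22 and 0.12 against 0.21 to 0.32. Differences within these 2 arrays and within the other 4 are therefore given for IL1A, IL1B, IL1RN, IL1R1 and IL1R2. For other genes they are given in a few cases where they part widely. CEBPB itself (212501_at) read 10.29, 10.50 and 11.38 on the C/EBPbeta-2 arrays and 11.27, 11.38 and 11.37 on the control arrays. The positions of its probes relative to the introduced sequence were not used here, so this gene is no check of the labels. All 9 measured markers of mammary epithelium averaged above every array median. Among them KRT5 differed by -0.13, while KRT14 (-3.0) and CDH1 (-2.14) were lower with C/EBPbeta-2 without overlap, 2 of 9 where 4.01% of all genes were lower in this way. LAMB3 (1.17) and ITGA6 (0.42) were higher, with overlap, and the median over the 9 was -0.13. Limma called 0 of the 9, where 0.116% of all genes were called. Fitted by gene it called KRT14 and CDH1, where 0.273% of all genes were called.

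Interleukin-1 alpha and beta are inflammatory cytokines that act on the same receptor. Either ligand binds IL1R1, which recruits IL1RAP, and the intracellular TIR domains of the pair bring in MYD88 and kinases that activate NF-kappaB. Several members restrain this: IL1RN occupies IL1R1 without recruiting IL1RAP, IL1R2 binds ligand but lacks a TIR domain, and SIGIRR is a TIR-bearing inhibitory receptor. The IL1B precursor is inactive until cleaved, most often by CASP1, whereas the IL1A precursor is already active. Epithelial cells are known to hold preformed IL1A and IL1RN.

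IL1B and IL1R2 rose with C/EBPbeta-2, and the 6 other genes were not called. By probe set, limma called 4 of the 22 at an adjusted p under 0.05, all 4 higher, where 0.0659% of all probe sets tested were called, 0.0275% higher and 0.0385% lower. The arrays of the groups did not overlap for 7 of the 22, against 7.62% of all probe sets, 5 of them higher (3.87% of all) and 2 lower (3.75% of all). An unadjusted p under 0.05 was reached by 8 of the 22, against 3.98% of all. The median difference over the 22 was -0.07, beside -0.00088 over all probe sets, with members on both sides of 0. In RNA from whole cultures, more RNA per cell and more cells that hold the RNA cannot be told apart. The 8 genes were selected with results of these arrays known.

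**Figure D1:**
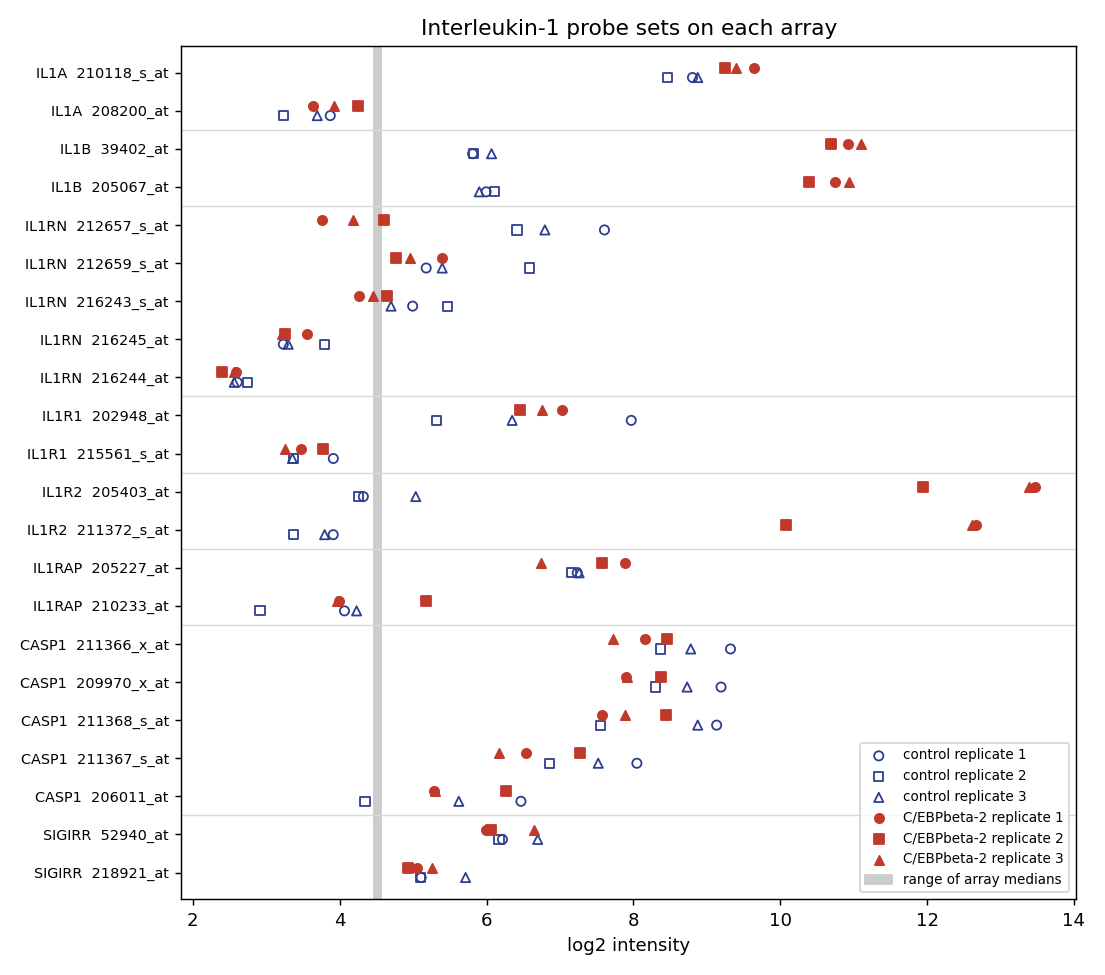
Log2 intensity of each of the 22 probe sets (rows, grouped by gene) on each of the 6 arrays; filled red symbols are C/EBPbeta-2 arrays, open blue symbols are control arrays, the symbol's shape gives the replicate number, and the grey band is the range of array medians. The symbols part widely for both IL1B and both IL1R2 probe sets, part in the other direction for 212657_s_at of IL1RN, and are mixed for IL1R1, IL1RAP, CASP1 and SIGIRR.

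The start regions of IL1B and IL1R2, which rose together, and of IL1A, which lies beside IL1B, are printed because they show what sequence lies where transcription of these genes begins. Each window holds 250 bases before and 50 bases after a transcription start in RefSeq, build GRCh38.p14, and is written in the direction of transcription. IL1A has more than 1 start in the table and its first is shown, and both starts of IL1R2 are shown. Capitals mark matches on either strand to a C/EBP motif (TTGCNNAA), an AP-1 motif (TGANTCA), an NF-kappaB motif (GGGAN followed by TTTCC) or a TATA box (TATAAA).
IL1B, chr2:112836730-112837029, minus strand: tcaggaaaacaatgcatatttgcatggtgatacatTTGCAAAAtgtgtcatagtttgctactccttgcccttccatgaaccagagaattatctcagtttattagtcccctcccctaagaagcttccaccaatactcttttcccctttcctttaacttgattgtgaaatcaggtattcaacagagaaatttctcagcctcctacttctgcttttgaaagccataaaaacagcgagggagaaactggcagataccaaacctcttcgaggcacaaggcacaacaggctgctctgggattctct
IL1R2, downstream start, chr2:101998711-101999010, plus strand: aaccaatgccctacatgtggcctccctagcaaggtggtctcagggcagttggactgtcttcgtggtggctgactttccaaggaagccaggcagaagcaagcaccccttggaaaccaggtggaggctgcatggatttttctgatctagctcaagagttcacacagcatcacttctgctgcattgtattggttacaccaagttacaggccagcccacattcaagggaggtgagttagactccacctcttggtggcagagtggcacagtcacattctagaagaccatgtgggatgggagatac
IL1R2, upstream start, chr2:101991710-101992009, plus strand: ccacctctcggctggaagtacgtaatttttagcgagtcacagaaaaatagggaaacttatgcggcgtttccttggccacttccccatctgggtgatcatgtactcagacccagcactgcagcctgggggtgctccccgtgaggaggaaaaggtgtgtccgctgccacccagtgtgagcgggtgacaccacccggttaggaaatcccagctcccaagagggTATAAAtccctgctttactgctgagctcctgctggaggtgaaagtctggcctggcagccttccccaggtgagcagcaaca
IL1A, chr2:112784444-112784743, minus strand: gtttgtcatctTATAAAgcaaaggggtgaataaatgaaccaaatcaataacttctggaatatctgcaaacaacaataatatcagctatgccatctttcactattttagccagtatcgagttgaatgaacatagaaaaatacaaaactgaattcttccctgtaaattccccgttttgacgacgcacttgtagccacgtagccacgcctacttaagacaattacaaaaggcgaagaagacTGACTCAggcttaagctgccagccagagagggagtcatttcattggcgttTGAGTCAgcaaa
The IL1B window held 1 match to the C/EBP letters, at position -215 from the start, and none of the other 3 motifs. A C/EBP match occurred in 10.5% of the 35097 start windows of this length. Neither IL1R2 window held one, and the upstream IL1R2 window held a TATA box at position -30, a motif found in 11.5% of all windows. In the IL1A window AP-1 matches lay at positions -12 and 39, where 7.71% of all windows held at least 1, with a TATA box at -239. The NF-kappaB letters, found in 0.558% of all windows, were in none of the 14 windows of the members. In all, 7 of the 8 members had a window, and the motifs were chosen with these sequences in view. A match describes letters only.

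IL1B, the secreted cytokine interleukin-1 beta, rose 32.1-fold at the brighter of its 2 probe sets and 25.9-fold at the other, 205067_at. The brighter one read 10.92, 10.69 and 11.10 on the C/EBPbeta-2 arrays and 5.81, 5.82 and 6.07 on the control arrays. At 205067_at the values were 10.75, 10.40 and 10.94 against 6.0, 6.11 and 5.90. Every control value lay above its array's median, the replicates of a group lay close together, and the groups were far apart at both probe sets. The log2 difference was 5.01 at the brighter probe set (SE 0.17, 95% interval 4.59 to 5.42, limma adjusted p = 0.00192) and 4.69 at 205067_at (SE 0.19, 4.25 to 5.14, limma adjusted p = 0.00233). Within the arrays of low spike-in level it was 4.88 at the brighter probe set and 4.40 at 205067_at, and within those of high level 5.07 and 4.84. Both calls held whichever array was left out (limma adjusted p 0.00448 to 0.0356 at the brighter probe set).

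IL1R2, the decoy that captures interleukin-1 without passing a signal, showed the largest difference of the system. The brighter of its 2 probe sets read 13.48, 11.94 and 13.39 on the C/EBPbeta-2 arrays and 4.32, 4.25 and 5.04 on the control arrays. At 211372_s_at the values were 12.67, 10.08 and 12.61 against 3.91, 3.37 and 3.79. The control values lay at or below the array medians except for control replicate 3 at the brighter probe set, and every C/EBPbeta-2 value lay far above them. C/EBPbeta-2 replicate 2 was the lowest of its group at both probe sets and is an array of low spike-in level.

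The log2 difference in IL1R2 was 8.40 at the brighter probe set (SE 0.45, 95% interval 7.31 to 9.49, limma adjusted p = 0.00502) and 8.10 at 211372_s_at (SE 0.69, 6.44 to 9.75, limma adjusted p = 0.0296). These are measured folds of 338 and 274. With the control arrays so near the array medians, the size of either fold is uncertain. Within the low spike-in arrays the differences were 7.62 and 6.17, and within the high ones 8.79 and 9.06. The call at the brighter probe set was lost without C/EBPbeta-2 replicate 3 (difference 8.17, limma adjusted p = 0.0617). That at 211372_s_at was kept without C/EBPbeta-2 replicate 2 (limma adjusted p = 0.00187) and lost without any other array (0.0782 to 0.207).

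IL1RN, the antagonist that blocks IL1R1, was lower with C/EBPbeta-2 at its brightest probe set but was not called in the fit over all probe sets. Probe set 212657_s_at read 3.77, 4.60 and 4.18 on the C/EBPbeta-2 arrays and 7.61, 6.42 and 6.79 on the control arrays. The groups did not overlap, and the C/EBPbeta-2 arrays lay around the array medians. Control was 6.77-fold higher, a log2 difference of -2.76 (SE 0.36, 95% interval -3.61 to -1.90, limma adjusted p = 0.10). The difference was -3.01 within the low spike-in arrays and -2.63 within the high ones. Genes read at 1 probe set each and fitted on their own gave a call (limma adjusted p = 0.0479, with 0.273% of genes called), and it was 1 of 4 alternatives out of 15 that did (0.0330 to 0.605).

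The 5 IL1RN probe sets did not agree in size. At 216243_s_at the values were 4.27, 4.64 and 4.45 against 4.99, 5.47 and 4.70, a difference of -0.60 (95% interval -1.16 to -0.04) with no overlap between groups but levels close to the array medians. Probe set 212659_s_at read 5.40, 4.77 and 4.96 against 5.18, 6.59 and 5.40, and its groups overlapped (difference -0.68, 95% interval -1.62 to 0.26). The last 2, 216245_at and 216244_at, stayed between 2.40 and 3.79 on every array, below the array medians, with differences of -0.10 and -0.12. These 2 and 216243_s_at carry the same source accession in the annotation. Only 212657_s_at had a 95% interval wholly beyond a 2-fold difference.

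IL1A, the ligand encoded beside IL1B, was higher by a much smaller amount and was not called. Probe set 210118_s_at read 9.64, 9.24 and 9.40 on the C/EBPbeta-2 arrays and 8.81, 8.47 and 8.88 on the control arrays. Every C/EBPbeta-2 value was above every control value, and all 6 were well above the array medians. The log2 difference was 0.71 (1.63-fold, SE 0.19, 95% interval 0.26 to 1.16, limma adjusted p = 0.620), and 0.44 and 0.84 within the low and high spike-in arrays. The other IL1A probe set, 208200_at, lay below the array medians at 3.23 to 4.25, with overlapping groups (difference 0.34).

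**Figure D2:**
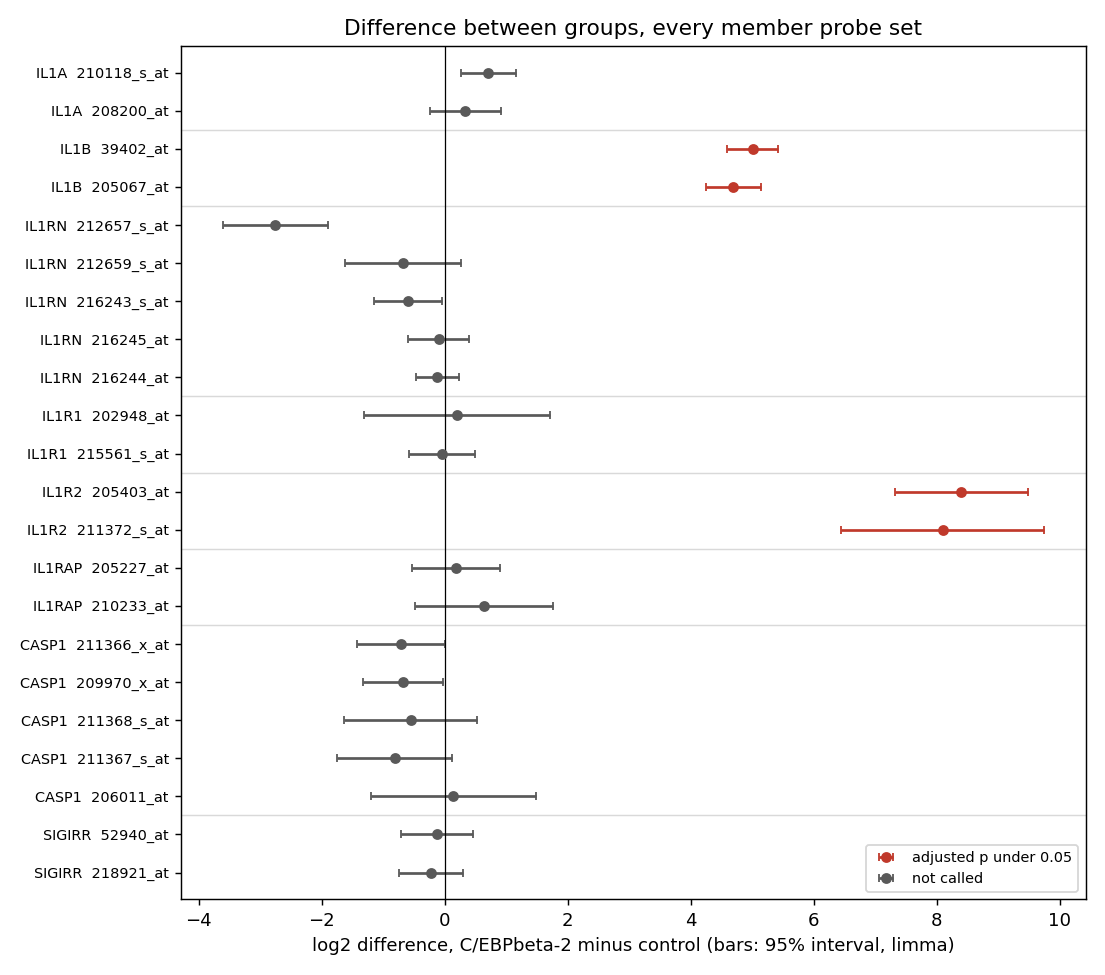
Log2 difference, C/EBPbeta-2 minus control, for each of the 22 probe sets (rows, grouped by gene), with 95% intervals from limma; red points had an adjusted p under 0.05. The 4 red points are the IL1B (4.69 and 5.01) and IL1R2 (8.10 and 8.40) probe sets, and of the rest 212657_s_at of IL1RN (-2.76) lies farthest from 0.

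The receptor chains that pass the signal were not called. IL1R1 (202948_at), the ligand-binding chain, read 7.02, 6.46 and 6.76 on the C/EBPbeta-2 arrays and 7.97, 5.31 and 6.35 on the control arrays. All 3 C/EBPbeta-2 values fell inside the wide control range. Its log2 difference was 0.20 (SE 0.63, 95% interval -1.31 to 1.71), which leaves room for more than a 2-fold change in either direction. It was -1.51 within the low spike-in arrays and 1.06 within the high ones. The dim probe set 215561_s_at differed by -0.04 (95% interval -0.58 to 0.50).

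IL1RAP (205227_at), the subunit that completes the signalling receptor, read 7.89, 7.57 and 6.74 against 7.24, 7.16 and 7.26. Its control values were nearly equal, and the C/EBPbeta-2 values lay on both sides of them (difference 0.18, 95% interval -0.54 to 0.90). The dimmer 210233_at differed by 0.64 (-0.48 to 1.76), with 1.11 within the low spike-in arrays and 0.41 within the high ones. SIGIRR, which dampens interleukin-1 and Toll-like receptor signalling, read 6.0, 6.07 and 6.65 against 6.22, 6.17 and 6.70 at 52940_at. The groups overlapped, and the difference was -0.12 (95% interval -0.71 to 0.47). At 218921_at it was -0.23 (-0.75 to 0.29).

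CASP1, which cleaves the IL1B precursor, was not called at any of its 5 probe sets, and its groups overlapped at all 5. Probe set 211366_x_at read 8.16, 8.45 and 7.72 on the C/EBPbeta-2 arrays and 9.32, 8.37 and 8.78 on the control arrays. Probe set 209970_x_at read 7.90, 8.38 and 7.91 against 9.19, 8.31 and 8.73. At these and 2 others the mean was lower with C/EBPbeta-2 (differences of -0.55 to -0.81), and at 206011_at it was 0.13 higher. The interval of 209970_x_at was -1.32 to -0.03 (limma unadjusted p = 0.0417, adjusted p = 1.00). In both groups the array of low spike-in level was the highest of the 3 at all 5 CASP1 probe sets. With a term for the spike-in level the differences were -0.76 to 0.20, and none was called. Both _x_at sets hold probes that can match other transcripts, and 1 further probe set, annotated to CASP1 and CARD16 together, was left out by the rule (1552703_s_at; difference -0.23).

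Unequal change between members was examined array by array, as the difference between the log2 values of 2 genes at their brightest probe sets. IL1B minus IL1A was 1.29, 1.45 and 1.71 on the C/EBPbeta-2 arrays and -2.99, -2.65 and -2.81 on the control arrays, which parts the groups by 4.30. IL1R2 minus IL1R1 was 6.45, 5.48 and 6.63 against -3.65, -1.06 and -1.31, a difference of 8.20. IL1B minus IL1RN, agonist against antagonist, was 7.16, 6.09 and 6.92 against -1.80, -0.59 and -0.73, a difference of 7.76. In all 3 pairs the groups stood far apart, and the first gene of the pair was higher relative to the second on every C/EBPbeta-2 array than on any control array. The exact two-sided permutation p was 0.1 for each (n = 3 per group; 0.1 after adjustment over the 3), the smallest that 3 arrays against 3 can give. Since IL1B and IL1R2 by themselves part the groups widely, as given above, neither the separation nor this p is separate evidence.

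On chromosome 2 the receptor genes lie in 1 run and the ligand genes in another, and the differences along each are given in order. In the RefSeq order IL1R2, IL1R1, IL1RL2, IL1RL1, IL18R1 and IL18RAP, the log2 differences were 8.40, 0.20, -0.06, 3.53, 2.64 and -0.01. IL1RL2 and IL18RAP averaged at or below the array medians in both groups, so their small differences say little. IL1RL1, the receptor for interleukin-33, and IL18R1, the ligand-binding chain for interleukin-18, did not overlap between groups but were not called (limma adjusted p = 0.459 and 0.133). IL1RL1 (242809_at) read 9.69, 6.54 and 9.27 against 5.31, 4.63 and 4.97. C/EBPbeta-2 replicate 2 was again the lowest of its group, and without it IL1RL1 was called (difference 4.51, limma adjusted p = 0.0201). Leaving out the lowest array of the higher group widens the difference by itself. With any other array left out IL1RL1 was not called (limma adjusted p of 0.626 or above). The IL1RL1 difference was 1.23 within the low spike-in arrays and 4.68 within the high ones. The 3 other IL1RL1 probe sets differed by 4.95, 2.64 and -0.10. IL18R1 (206618_at) read 5.84, 5.22 and 6.77 against 3.50, 3.18 and 3.22.

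Of the 3 flanking genes on each side of the receptor run, 4 were measured: CREG2 differed by -0.02, the kinase MAP4K4 by -0.27, the sodium-proton exchanger SLC9A2 by -0.01 and SLC67A2 by 0.25. Over the 10 measured genes of this run, 1 was called and 4 did not overlap, all higher, against 0.116% called and 8.63% not overlapping (4.62% higher, 4.01% lower) among all genes read at 1 probe set. In the ligand run from IL1A to IL1RN, the 6 family genes between IL1B and IL1RN (IL37, IL36G, IL36A, IL36B, IL36RN and IL1F10) differed by -0.10 to 0.31. Of these, only IL37 and IL1F10 averaged above the array medians. The other 4 averaged below them, so their small differences say little. Of the flanking genes, the phosphate transporter SLC20A1 differed by 0.94 and PSD4 by -0.57, both without overlap and neither called. NT5DC4 (-0.13), CKAP2L (0.32) and the transcription factor PAX8 (-0.10) overlapped.

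**Figure D3:**
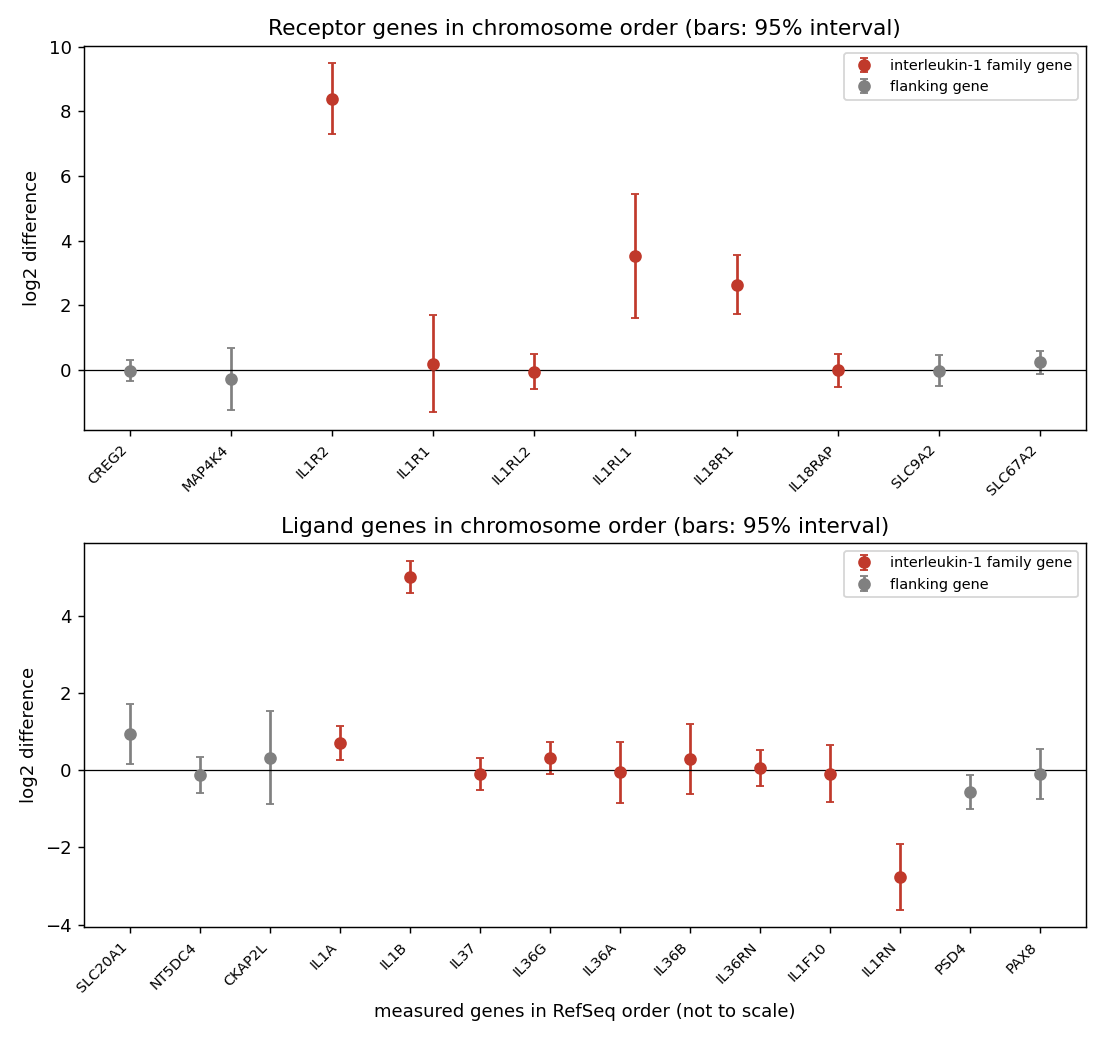
Log2 difference, C/EBPbeta-2 minus control, with 95% intervals from limma, for measured genes in their order along chromosome 2 (horizontal axis, not to scale); the upper panel holds the receptor run and the lower the ligand run, red points are interleukin-1 family genes and grey points flanking genes. IL1R2 (8.40), IL1RL1 (3.53) and IL18R1 (2.64) lie high with IL1R1 and IL1RL2 near 0 between them, and in the lower panel IL1B (5.01) and IL1RN (-2.76) lie apart from the genes between them.

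The genes around the 8 members were read from lists chosen with earlier results of these arrays known, each gene at its brightest probe set. On the 4 lists limma called 0 genes at an adjusted p under 0.05, where 0.116% of all genes were called. Fitted by gene it also called 0, where 0.273% of all genes were called. An unadjusted p under 0.05 was reached by 3 of 15 other family genes, 1 of 16 inflammasome genes, 1 of 19 signalling genes and 6 of 17 response genes, against 5.4% of all genes.

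Of the 15 other ligands and receptors of the family, 3 were higher and 1 lower without overlap, against 4.62% and 4.01% of all genes (median difference 0.05, against 0.01 over all genes). The higher ones were IL1RL1, IL18R1 and the neuronal receptor-like IL1RAPL1 (0.32), which stayed below the array medians on every array. The lower one was the cytokine IL18, which read 8.29, 8.65 and 7.07 against 10.77, 9.21 and 10.65 (difference -2.20, limma adjusted p = 0.591). The inflammasome and processing list held 16 genes with a median of -0.07. NLRP3, the inflammasome sensor that activates CASP1, was the 1 gene of 16 without overlap, 6.25% against 8.63% of all genes. It read 4.08, 4.64 and 5.04 against 3.51, 3.23 and 3.22, low values near the array medians (difference 1.27, limma adjusted p = 0.378). Next in size were CARD8, an inflammasome sensor (0.50), and CAPN1, a calpain (-0.22), while GSDMD, the pore-forming protein of interleukin-1 release, differed by -0.07.

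Of the 19 measured genes of signal transduction, 1 was higher (RELA, an NF-kappaB subunit, 0.25) and 1 lower without overlap, together 10.5% against 8.63% of all genes, with a median of 0.09. The lower one was NFKBIA, the inhibitor that NF-kappaB itself induces, at 9.54, 9.64 and 10.27 against 10.38, 10.37 and 10.56 (difference -0.62, limma unadjusted p = 0.0314). MAP3K7, the kinase TAK1, differed by 0.87 and CHUK, an IkappaB kinase, by 0.44, both with overlap.

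Genes that interleukin-1 is known to induce in epithelial cells lay on both sides of 0, with a median of -0.21 over 17 measured genes. Without overlap 2 were higher (ICAM1, 0.44, and MMP3, 0.83) and 3 lower (CXCL1, CCL20 and SOD2), in all 5 of 17 against 8.63% of all genes. MMP3 averaged 3.90 against 3.07, both below the array medians. SOD2 differed by -1.29, with -2.94 within the low spike-in arrays and -0.47 within the high ones. The chemokine CXCL1 read 6.0, 6.52 and 6.18 against 8.82, 8.30 and 6.87 (difference -1.76, limma adjusted p = 0.704). CCL20, a chemokine for memory lymphocytes and dendritic cells, read 4.40, 4.03 and 4.33 against 6.73, 7.29 and 4.72 (difference -1.99, limma adjusted p = 0.896). For both, the C/EBPbeta-2 arrays were below all control arrays and control replicate 3 was nearest to them. CSF3, a granulocyte growth factor, read 8.15, 6.40 and 9.94 against 4.94, 6.87 and 6.07, with overlap (difference 2.20, limma adjusted p = 1.00). PTGS2 read 3.69, 5.39 and 5.19 against 3.76, 3.65 and 3.37, with overlap (difference 1.16, limma unadjusted p = 0.0376). Of the 6 genes with a limma unadjusted p under 0.05, CSF3, PTGS2, ICAM1 and MMP3 were higher and CXCL1 and CCL20 lower. IL6 differed by -0.04 and stayed below the array medians on every array, and CXCL8 differed by -0.22.

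**Figure D4:**
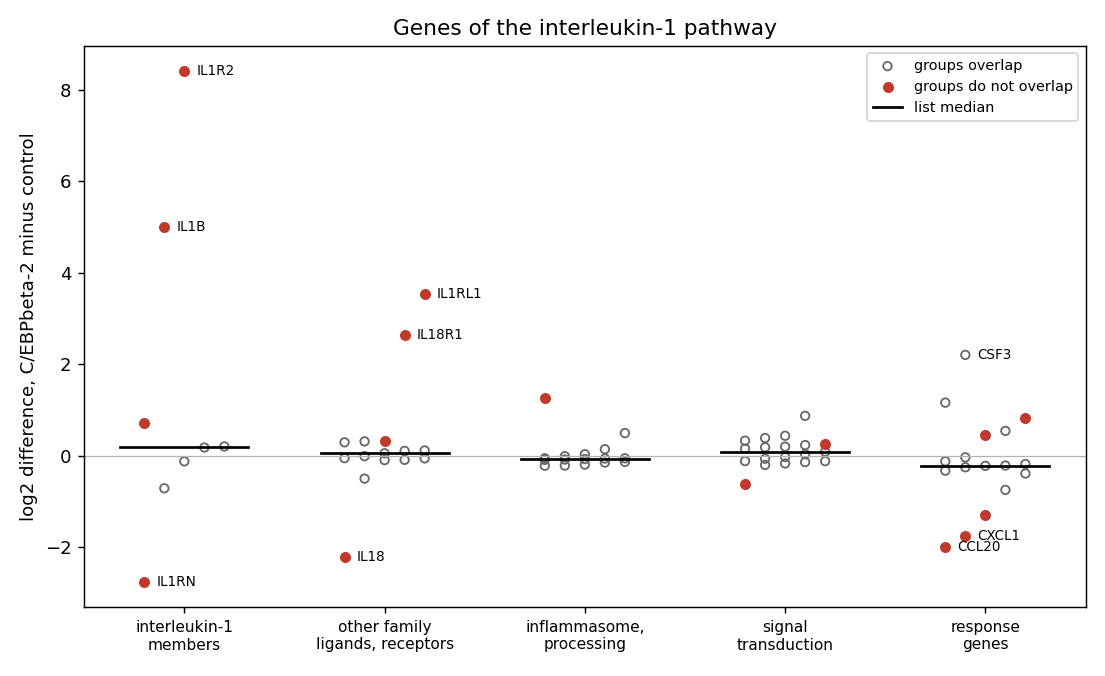
Log2 difference, C/EBPbeta-2 minus control, of each gene (points) on 5 lists of the interleukin-1 pathway, each gene at its brightest probe set; filled red points are genes whose groups do not overlap, and black bars are list medians. The medians lie between -0.21 and 0.19, and IL1R2, IL1B, IL1RL1 and IL1RN lie farthest from them.

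White blood cells are a known source of IL1B and IL1R2, so leukocyte markers were read beside them. Limma called 0 of the 12 measured, where 0.116% of all genes were called. An unadjusted p under 0.05 was reached by 2, against 5.4% of all genes. Averaged over the list, the markers read 4.41 to 4.55 on the C/EBPbeta-2 arrays and 4.23 to 4.42 on the control arrays, around the array medians. PTPRC, the marker of all white blood cells, read 3.11 to 3.63 over the 6 arrays, and the myeloid factor SPI1 read 3.29 to 3.85, both below every array median. Of the 12 markers, 4 averaged above every array median. CD14, a lipopolysaccharide co-receptor, was the 1 gene of 12 without overlap, 8.33% against 8.63% of all genes. It was higher, averaging 7.08 against 6.16 (difference 0.92, limma adjusted p = 0.430), and the integrin ITGB2 averaged 6.54 against 5.23 (difference 1.31) with overlap. Their part in the IL1B and IL1R2 values was not tested. Of 10 measured fibroblast markers, 3 were lower without overlap (FAP, -3.21, DCN, -2.61, and POSTN, -2.54) and none higher, against 4.01% of all genes lower in this way. Limma called 0 of the 10, where 0.116% of all genes were called. Fitted by gene it called FAP (limma adjusted p = 0.0265), where 0.273% of all genes were called. The list averaged 4.52 to 4.93 with C/EBPbeta-2 and 5.22 to 5.75 in control. Its median difference was -0.05, beside 0.01 over all genes, and COL1A2 (0.39) and PDGFRB (0.33) were among those higher, with overlap. DCN differed by -4.38 within the low spike-in arrays and -1.72 within the high ones, and POSTN by -4.20 and -1.71. Whether the fibroblast markers bear on the IL1RN values was not tested.

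The genes most like a member were those with the smallest root mean square distance between log2 profiles over the 6 arrays, each profile first centred on its own mean. They are given as a description, with no test. For IL1B they were GLT8D2 (distance 0.53 in log2 units), the activin subunit INHBA (0.67) and SERPINB3 (0.69), which differed between groups by 4.16, 4.77 and 4.29. For IL1R2 they were the cytokine IL24 (0.87), the teneurin TENM2 (1.17) and IL1B itself (1.75). IL24, TENM2, IL1B and IL1R2 were all lowest of their group on C/EBPbeta-2 replicate 2, a likeness that the choice by distance favours. Between groups, IL24 differed by 7.01 and TENM2 by 6.23, where IL1R2 differed by 8.40. For 212657_s_at of IL1RN they were PITPNM3 (0.22), the cornified envelope precursor SPRR3 (0.26) and the adhesion receptor ADGRG2 (0.28), which differed by -2.85, -2.67 and -3.20.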

How the data were processed

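Expression was measured on Affymetrix arrays, 3 per group. The deposited values are intensities by probe set, and RMA, without a version, is named in the submitters' processing notes. The values were linear (4.17 to 17825), though RMA usually gives log2, and the sources used here do not say how they were rescaled. Log2 was taken without adding a pseudocount. RMA and summarising by probe set pull low values together, so folds from a dim group are uncertain.

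Of 54675 probe sets, 62 manufacturer controls were set aside. C/EBPbeta-2 minus control was fitted with limma 3.58.1 (lmFit, eBayes; R 4.3.3) over the 54613 others, two-sided, with Benjamini-Hochberg adjustment over all of them; called means an adjusted p under 0.05. The fit was also run on simulated data of independent normal values without array effects, so that run is no check of the calls made here. Python 3.11.15 with pandas 2.3.3, numpy 2.4.6, scipy 1.17.1 and matplotlib 3.10.9 did the rest. A gene off the member list was read at its probe set of highest mean. Listed genes that no probe set names alone were not analysed here. Named were all members, the called genes and the 3 largest differences of each list, the measured genes of both chromosome 2 runs, and the 3 genes most like each of IL1B, IL1R2 and IL1RN; the others named were chosen after their values were seen. Members and lists were chosen with earlier results of these data known. Promoter sequences are from RefSeq. With 3 arrays per group, their number limits the precision.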

Additional observations from a re-analysis of the deposited data

How the results depend on the processing

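The alternatives left out each array, added the replicate number as a block or a term for the spike-in level, normalized again (by quantiles, or by setting all array medians equal), dropped dim probe sets, changed the prior variance, weighted arrays, fitted by gene or changed the threshold. A fit by gene that kept the prior variance of all probe sets was chosen after seeing the data, as were the fit by gene and the block for the pathway lists and chromosome 2 genes. IL1B and IL1R2 stayed higher under all of them. Over all probe sets the count of calls, 36, became 78 without dim probe sets, 67 with a trended and robust prior, 122 with array weights, 92 at an adjusted p under 0.10 and 5 to 37 when 1 array was left out. Of the members, 2 to 4 probe sets were called when 1 array was left out (2 without C/EBPbeta-2 replicate 3), and 2 in the added fit by gene, which tests 1 probe set per gene. The same-numbered samples did not all deviate together, with correlations of -0.45, -0.55 and 0.42. Only C/EBPbeta-2 replicate 3 and control replicate 3 correlated best with their own number. C/EBPbeta-2 replicate 1 correlated best with control replicate 2 (0.64), and C/EBPbeta-2 replicate 2 with control replicate 1 (0.66). The latter 2 are the arrays of low spike-in level. These correlations show no pairing by number, and a block by number does not follow these likenesses. They cannot exclude such a pairing, because deviations from a mean of 3 arrays depend on each other. With the replicate block, which leaves fewer degrees of freedom, 0 probe sets were called in all, 0 of the members and 0 of the chromosome 2 genes, with IL1B at 5.01 and IL1R2 at 8.40 (limma adjusted p = 0.156 for each). Sign flips over same-numbered pairs gave an exact p of 0.25, the smallest possible, for each of the 3 pairs of members.

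IL1RN (212657_s_at) was called without dim probe sets (-2.76, limma adjusted p = 0.0442), with array weights (-2.83, 0.0330), with the spike-in term (-2.72, 0.0446) and in the fit by gene (-2.76, 0.0479), but not in the added one (0.0556). It ranged from -3.02 to -2.43 when 1 array was left out, IL1B from 4.91 to 5.11 and IL1R2 from 8.13 to 8.90. IL1R2 was 7.62 within the low spike-in arrays. With each gene at the mean of its probe sets, IL1B minus IL1RN differed by 5.70 in place of 7.76. When 1 array was left out, IL1B minus IL1A ranged from 4.18 to 4.39, IL1R2 minus IL1R1 from 7.38 to 8.67 and IL1B minus IL1RN from 7.39 to 8.08. The lists then had 0 or 1 call (IL1RL1, without C/EBPbeta-2 replicate 2) and the chromosome 2 genes 1 to 3. Members that were not called turned sign with array weights: IL1R1 (202948_at) to -0.084, IL1RAP (205227_at) to -0.039 and CASP1 (206011_at) to -0.23. With 1 array left out, the ranges crossed 0 for IL1R1 (-0.41 to 0.92 at 202948_at, -0.18 to 0.14 at 215561_s_at), IL1RAP (-0.066 to 0.51 at 205227_at), CASP1 (-0.43 to 0.63 at 206011_at), SIGIRR (-0.33 to 0.044 at 52940_at) and IL1RN (-0.21 to 0.075 at 216245_at). The causes were not tested. Signal near the array medians limits the IL1R2 and IL1RN folds.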
